A study of Mus musculus with 16 samples.

Results

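Chemokines are small secreted proteins that direct the movement of leukocytes, and their receptors are seven-transmembrane proteins coupled to inhibitory G proteins. Atypical receptors bind chemokines without that coupling and take them up. In the kidney, tubule and endothelial cells release chemokines after injury or under inflammatory signals, and resident macrophages carry receptors such as Cx3cr1. The family was described here across kidney cortex from 4 mouse genotypes. Its members were all genes whose symbol is Ccl, Cxcl, Cx3cl, Xcl, Ccr, Cxcr, Cx3cr, Xcr or Ackr followed by a digit, which gave 56 of the 22180 genes in the table. They comprise 34 ligands, 18 conventional receptors and 4 atypical receptors, each read from the probe set with its highest mean.

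The study compared transcripts of 3-month-old mice on normal diet, to look for early events that may matter in clear cell renal cell carcinoma, and hybridised RNA of kidney cortex to 16 Affymetrix arrays, 4 per group. Wild-type mice were of strain C57BL/6. The 3 mutant groups were VhlF/FKsp-Cre (Vhl mutant), Pbrm1F/FKsp-Cre (Pbrm1 mutant) and VhlF/FPbrm1F/FKsp-Cre (double mutant), all on a mixed background of C57BL/6, BALB/c and 129. F marks a floxed allele, Ksp-Cre drives Cre recombinase from the promoter of Cdh16 in kidney tubule epithelium, Vhl encodes a ubiquitin ligase subunit that targets hypoxia-inducible factors, and Pbrm1 encodes a subunit of the chromatin remodeller PBAF. The labels give no floxed allele or Cre for wild type, so every comparison with wild type also compares strain and Cre, which cannot be told apart from the deletions. The descriptions hold 2 numbers per group, each with a letter, and if a number marks an animal a group holds 2 animals rather than 4. In wild type, Vhl and Pbrm1 mutants, 1 number covers replicates 1 and 2 and the other replicates 3 and 4, and deviations from the group mean correlated at -0.20 to -0.10 within a number against -0.51 to -0.30 between numbers. Every n below counts arrays, so the tests rest on the spread among arrays, which may be technical, and precision is limited by their number. Chemokine producers and responders were measured together in bulk tissue, where more cells of a type and more RNA per cell cannot be told apart.

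All values are log2 levels after robust multi-array averaging. A gene was called where the Benjamini-Hochberg adjusted p of a limma fit over all 22180 genes was under 0.05. The level 3.72, the highest lower quartile of any array, served as a guide to background, and no fold is given for a gene below it in a compared group. The tissue label fitted the arrays, with the median level of 8 proximal tubule markers between 11.50 and 11.90. The probe sets of Vhl and Pbrm1 did not separate the genotypes (Vhl 6.34 ± 0.15 in wild type and 6.28 ± 0.02 in Vhl mutants, Pbrm1 8.19 ± 0.05 in wild type and 8.19 ± 0.04 in Pbrm1 mutants, SD, n = 4). Which part of each gene its probes read is not given, so these values check nothing. Double mutant replicates 2 and 3 carry the same description, with a number that replicate 1 shares. Deviations from the group mean over all genes gave r = 0.01 between replicates 1 and 2 and r = -0.07 between replicates 3 and 4, against r from -0.51 to -0.43 for the other pairs of that group. Replicate 3 thus stood nearer to replicate 4 than its description says. In 4 arrays the median of 8 adipose markers stood raised over the wild-type mean, by 0.53 in Vhl mutant replicate 2, 0.79 in Pbrm1 mutant replicate 3, and 0.57 and 0.66 in double mutant replicates 2 and 3. Vhl mutant arrays carry higher description numbers than the rest, and a batch behind them, if any, cannot be told apart from genotype.

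More chemokine genes were called in double mutants than in either single mutant group, and most of those calls were rises. In Vhl mutants 6 of 56 members rose against wild type and 0 fell, 10.7% of the family against 3.84% of all genes (2.04% up, 1.79% down). They were the ligands Ccl5, Ccl9 and Cxcl16 and the receptors Ccr2, Cx3cr1 and Cxcr6. In Pbrm1 mutants Cx3cr1 rose and Ccl25 fell, 3.57% of the family against 4.04% of all genes (1.59% up, 2.45% down), a share near the background. In double mutants 10 members rose and 2 fell, 21.4% against 12.2% of all genes. Those that rose were Ccl5, Ccl9, Ccl28, Cxcl1, Cxcl2, Cxcl11, Cxcl16, Cx3cl1, Ccr2 and Cx3cr1, and those that fell were Ccl25 and Cxcl14. By direction, the whole-table shares called in double mutants were 6.64% up and 5.56% down. The median change of the 56 members was 0.16 for Vhl mutants, 0.01 for Pbrm1 mutants and 0.07 for double mutants, beside -0.01, -0.01 and -0.02 over all genes.

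**Figure D1:**
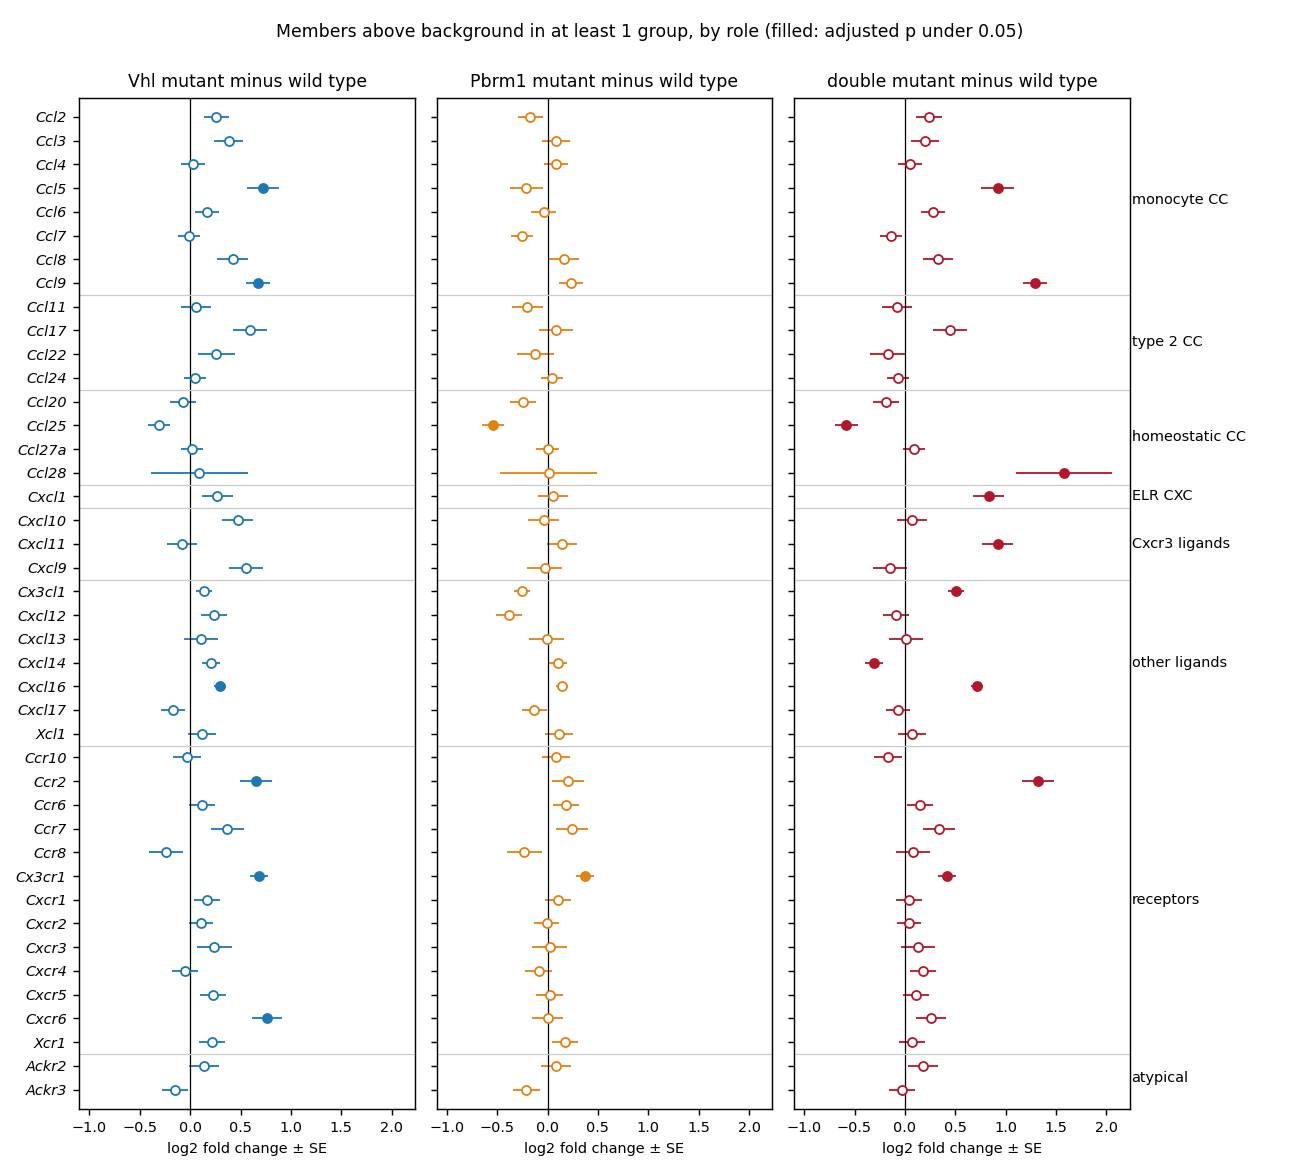
Log2 difference from wild type (horizontal axis, ± SE of the limma fit) of the 42 members above background in at least 1 group, in Vhl, Pbrm1 and double mutants, ordered by role, with filled points for called genes. In double mutants the filled points lie mostly to the right, led by Ccl28 at 1.58, Ccr2 at 1.32 and Ccl9 at 1.29, with Ccl25 at -0.58 and Cxcl14 at -0.31 to the left.

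By role, the calls in double mutants against wild type lay in 10 of 34 ligands (29.4%, 8 up and 2 down). They also lay in 2 of 18 conventional receptors (11.1%, both up), a share near the 12.2% of all genes (6.64% up, 5.56% down). Of the 4 atypical receptors limma called 0, with 0 at an unadjusted p under 0.05. Among 9 CC ligands that attract monocytes and macrophages 2 rose (22.2%), and the median change of the 9 was 0.24. Among 5 neutrophil-attracting CXC ligands with the ELR motif 2 rose (40%), of which Cxcl2 lay below background in every group. Among 3 ligands of Cxcr3 1 rose (33.3%). Of the 6 CC ligands that attract eosinophils and type 2 lymphocytes 0 were called, with 1 at an unadjusted p under 0.05. Against Vhl mutants, double mutants had 6 members higher and 2 lower (14.3%, all genes 6.35%, of which 3.8% higher and 2.55% lower). Against Pbrm1 mutants they had 9 higher and 1 lower (17.9%, all genes 10.2%, of which 6.82% higher and 3.37% lower). These comparisons share their arrays and are not independent. The interaction compares the double mutant change with the sum of both single changes. In it 2 members were called above that sum (all genes 1.78%) and 2 below it (0.852%), together 7.14% against 2.63%. Wild type enters this contrast too, so strain and Cre cannot be told apart from the deletions there. With a minimum of 1.5-fold added, 5 members passed in Vhl mutants (all genes 1.18%), none of the 2 in Pbrm1 mutants (1.06%) and 7 in double mutants (3.59%). With that minimum, 4 passed in double against Vhl mutants (1.84%), 7 in double against Pbrm1 mutants (3.37%) and 4 for the interaction (1.53%).

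Ccl9, a CC ligand of Ccr1 that attracts monocytes and other myeloid cells, read 5.77, 5.56, 5.62 and 5.46 in the wild-type arrays and 6.35, 6.14, 6.53 and 6.05 in Vhl mutants. It read 5.54, 5.99, 5.87 and 5.93 in Pbrm1 mutants and 6.85, 6.88, 6.76 and 7.06 in double mutants. Each Vhl mutant array stood above each wild-type array, and each double mutant array above all 12 others. Ccl9 was 1.59-fold higher in Vhl mutants (log2 0.67 ± 0.12 SE, adjusted p = 0.0027) and 2.45-fold higher in double mutants (1.29 ± 0.12, adjusted p = 3.1e-07) than in wild type. Double mutants were 1.54-fold above Vhl mutants (0.63 ± 0.12, adjusted p = 0.0027), a call that ended without the 4 arrays of raised adipose markers at about the same difference (0.64, adjusted p = 0.057), and 2.09-fold above Pbrm1 mutants (1.06 ± 0.12, adjusted p = 4.0e-06). The 200 bases before the RefSeq start of Ccl9 are shown because they hold a match to the consensus of NF-kappaB, a factor known to induce many chemokines. They lie at chr11:83578637-83578836 on the minus strand of GRCm38.p6, 5′ to 3′ on the gene's strand. Capitals mark, in order, a TATAAA match, a match to the AP-1 motif TGANTCA and the NF-kappaB match on the opposite strand.
Ccl9: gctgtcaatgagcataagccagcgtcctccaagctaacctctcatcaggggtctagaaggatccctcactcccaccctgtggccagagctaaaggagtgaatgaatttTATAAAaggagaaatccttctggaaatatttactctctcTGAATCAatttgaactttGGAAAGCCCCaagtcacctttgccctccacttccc

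Ccl5, a T cell and monocyte attractant that binds Ccr1 and Ccr3, read 5.53, 5.41, 5.40 and 5.69 in wild type and 5.43, 5.22, 5.18 and 5.34 in Pbrm1 mutants. It read 5.99, 6.25, 6.61 and 6.06 in Vhl mutants and 6.30, 6.67, 5.93 and 6.76 in double mutants. Both genotypes with floxed Vhl stood above both without it in every array, and they overlapped each other. Against wild type Ccl5 was 1.65-fold higher in Vhl mutants (0.72 ± 0.16, adjusted p = 0.015) and 1.89-fold higher in double mutants (0.92 ± 0.16, adjusted p = 6.2e-04). The first of these calls ended without Vhl mutant replicate 3 (adjusted p = 0.054). Double mutants stood 2.20-fold above Pbrm1 mutants (1.13 ± 0.16, adjusted p = 7.1e-05). Ccr1 and Ccr3, receptors of these ligands, stayed below 3.72 in every group, with Ccr1 means from 3.25 to 3.47 and Ccr3 means from 2.56 to 2.76.

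Ccr2, the receptor that brings monocytes out of the marrow and into tissue, read 4.69, 4.73, 4.89 and 4.76 in wild type and 5.08, 4.88, 4.91 and 5.02 in Pbrm1 mutants. It read 5.34, 5.15, 5.69 and 5.48 in Vhl mutants and 5.88, 5.60, 6.42 and 6.39 in double mutants. Double mutant replicates 3 and 4 were the highest of all arrays, and replicate 2 lay inside the Vhl mutant range. The gain over wild type was 1.56-fold in Vhl mutants (0.65 ± 0.16, adjusted p = 0.025) and 2.49-fold in double mutants (1.32 ± 0.16, adjusted p = 8.3e-06). The Vhl mutant call ended without Vhl mutant replicate 3 and without wild-type replicate 1 or 2 (adjusted p between 0.054 and 0.083), while the double mutant call held under the 28 alternatives and the 1.5-fold minimum. Double mutants were 1.59-fold above Vhl mutants with overlapping arrays (0.67 ± 0.16, adjusted p = 0.013), a call that ended without Vhl mutant replicate 2 or double mutant replicate 4 (adjusted p from 0.051 to 0.067). They were 2.16-fold above Pbrm1 mutants (1.11 ± 0.16, adjusted p = 6.7e-05).

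Ccl2, the main ligand of Ccr2, was not called against wild type in any mutant group. It read 4.51, 4.82, 4.44 and 4.83 in wild type, 5.02, 4.87, 5.06 and 4.69 in Vhl mutants, 4.53, 4.48, 4.51 and 4.38 in Pbrm1 mutants, and 5.09, 4.78, 4.96 and 4.75 in double mutants. Wild type overlapped every mutant group. The difference from wild type was 0.26 ± 0.12 in Vhl mutants (adjusted p = 0.30) and 0.24 in double mutants (adjusted p = 0.26). Double mutants stood 1.33-fold above Pbrm1 mutants (0.42 ± 0.13, adjusted p = 0.039), a call that ended without any single Pbrm1 mutant array, Vhl mutant replicate 2, or double mutant replicate 1 or 3 (adjusted p between 0.051 and 0.11). Ccl7, Ccl8 and Ccl12, further monocyte attractants, were not called in any comparison, with group means of 4.50 to 4.76 for Ccl7, 4.11 to 4.53 for Ccl8 and 2.97 to 3.24 for Ccl12.

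Cx3cl1 (fractalkine), a membrane-bound chemokine of epithelium and endothelium, read 7.94, 7.91, 7.69 and 7.79 in wild type and 8.16, 7.88, 7.91 and 7.96 in Vhl mutants. It read 7.44, 7.53, 7.74 and 7.63 in Pbrm1 mutants and 8.41, 8.32, 8.33 and 8.32 in double mutants. The double mutant arrays stood above all others, while the Vhl mutant arrays overlapped wild type. The double mutant level was 1.43-fold that of wild type (0.51 ± 0.08, adjusted p = 1.8e-04), 1.29-fold that of Vhl mutants (0.37 ± 0.08, adjusted p = 0.0077) and 1.69-fold that of Pbrm1 mutants (0.76 ± 0.08, adjusted p = 1.6e-06). Without the 4 arrays of raised adipose markers the difference from Vhl mutants was 0.35 and no longer called (adjusted p = 0.094). The interaction was 0.62 ± 0.11 (adjusted p = 0.0056), so the double mutant change from wild type exceeded the sum of the single mutant changes. The 200 bases before its RefSeq start, shown for comparison with Ccl9, lie at chr8:94771980-94772179 on the plus strand of GRCm38.p6. They hold no NF-kappaB match, and capitals mark the PU.1 core GAGGAA, the same core on the opposite strand and TATAAA.
Cx3cl1: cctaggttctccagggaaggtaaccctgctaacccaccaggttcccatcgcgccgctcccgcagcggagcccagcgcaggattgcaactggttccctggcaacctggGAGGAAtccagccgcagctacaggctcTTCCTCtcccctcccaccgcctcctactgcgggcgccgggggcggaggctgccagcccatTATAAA

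Cx3cr1, the receptor of Cx3cl1 and a marker of resident kidney macrophages and of monocytes, read 6.15, 5.96, 6.15 and 6.18 in wild type and 6.96, 6.94, 6.58 and 6.67 in Vhl mutants. It read 6.57, 6.51, 6.45 and 6.42 in Pbrm1 mutants and 6.52, 6.54, 6.44 and 6.61 in double mutants. Every mutant array stood above every wild-type array, Vhl mutants were highest by mean, and the Pbrm1 and double mutant arrays covered nearly the same range. The rise over wild type was 1.60-fold in Vhl mutants (0.68 ± 0.09, adjusted p = 1.6e-04), 1.30-fold in Pbrm1 mutants (0.37 ± 0.09, adjusted p = 0.022) and 1.34-fold in double mutants (0.42 ± 0.09, adjusted p = 0.0038). The interaction was -0.63 ± 0.13 (adjusted p = 0.011), opposite in sign to that of its ligand. The Pbrm1 mutant call ended without wild-type replicate 2, Pbrm1 mutant replicate 1 or Pbrm1 mutant replicate 2 (adjusted p from 0.05 to 0.068). Without the 4 arrays of raised adipose markers, the Pbrm1 mutant difference was 0.38 (adjusted p = 0.093) and the interaction -0.57 (adjusted p = 0.13).

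Cxcl16, a membrane-bound chemokine of epithelium and macrophages that binds Cxcr6 on T cells and natural killer T cells, had little spread within groups. It read 8.43, 8.35, 8.37 and 8.38 in wild type and 8.66, 8.58, 8.82 and 8.68 in Vhl mutants. It read 8.59, 8.50, 8.51 and 8.50 in Pbrm1 mutants and 9.10, 9.01, 9.09 and 9.19 in double mutants. The double mutant arrays stood above all others, and the Vhl and the Pbrm1 mutant arrays above every wild-type array. The difference of Pbrm1 mutants from wild type was not called. The gain over wild type was 1.23-fold in Vhl mutants (0.30 ± 0.06, adjusted p = 0.0059) and 1.64-fold in double mutants (0.72 ± 0.06, adjusted p = 6.7e-08). Double mutants were 1.33-fold above Vhl mutants (0.42 ± 0.06, adjusted p = 1.7e-04) and 1.49-fold above Pbrm1 mutants (0.58 ± 0.06, adjusted p = 1.3e-06).

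Cxcr6 read 3.39, 3.41, 3.31 and 3.13 in wild type, 4.44, 4.11, 3.79 and 3.95 in Vhl mutants, 2.89, 3.34, 3.43 and 3.57 in Pbrm1 mutants, and 3.51, 3.45, 3.77 and 3.55 in double mutants. Vhl mutants alone had a mean above 3.72, at 4.07 ± 0.28, and their call against wild type (adjusted p = 0.0062) carries no fold because the wild-type mean of 3.31 lay below that level. The difference of double from Vhl mutants, -0.50, was not called.

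**Figure D2:**
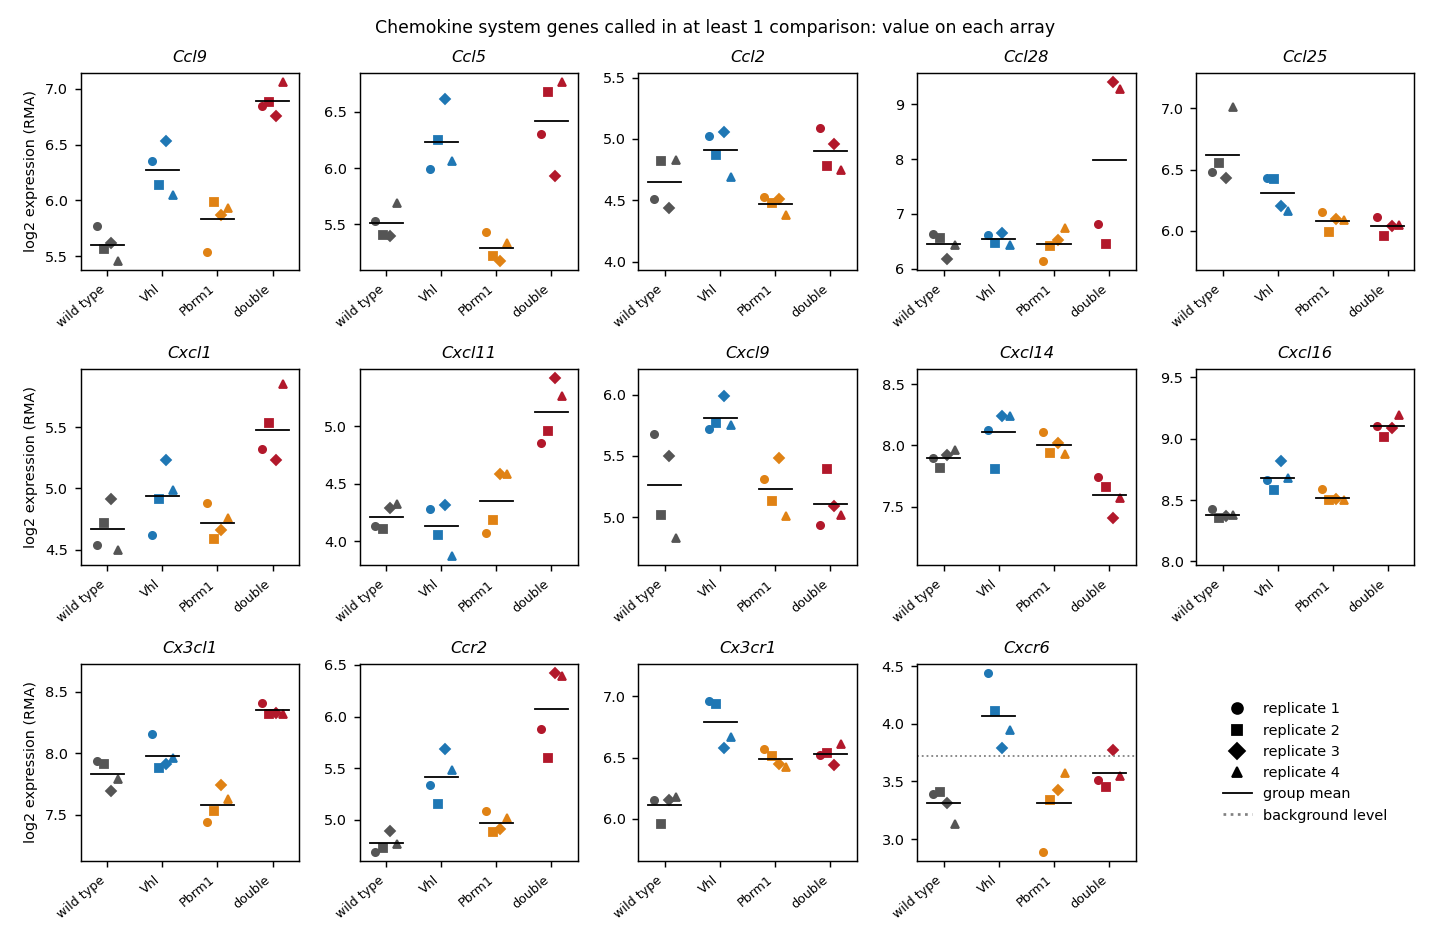
Log2 level in each of the 16 arrays (points) with group means (lines) for the 14 called members above background, 1 panel a gene, with its own axis range. The double mutant points of Ccl9, Cx3cl1 and Cxcl16 stand above every other array, and Ccl28 reads 9.40 and 9.28 in 2 of the 4 double mutant arrays.

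Cxcl1, a neutrophil attractant acting through Cxcr2, read 4.54, 4.72, 4.91 and 4.50 in wild type and 4.62, 4.91, 5.23 and 4.99 in Vhl mutants. It read 4.88, 4.59, 4.66 and 4.76 in Pbrm1 mutants and 5.32, 5.53, 5.23 and 5.85 in double mutants. The double mutant arrays stood above wild type and Pbrm1 mutants, and their lowest equalled the highest Vhl mutant array at this rounding. Cxcl1 was 1.78-fold above wild type in double mutants (0.83 ± 0.15, adjusted p = 7.0e-04) and 1.71-fold above Pbrm1 mutants (0.77 ± 0.15, adjusted p = 0.0014). It was 1.47-fold above Vhl mutants (0.56 ± 0.15, adjusted p = 0.027), a call that ended without double mutant replicate 2 or 4 or Vhl mutant replicate 1 or 2 (adjusted p between 0.058 and 0.13). It also ended without the 4 arrays of raised adipose markers, at 0.65 (adjusted p = 0.11). The window before its RefSeq start, chr5:90891045-90891244 on the plus strand of GRCm38.p6, is shown for its NF-kappaB matches. Capitals mark the hypoxia response core ACGTG on the opposite strand and then overlapping NF-kappaB matches on both strands.
Cxcl1: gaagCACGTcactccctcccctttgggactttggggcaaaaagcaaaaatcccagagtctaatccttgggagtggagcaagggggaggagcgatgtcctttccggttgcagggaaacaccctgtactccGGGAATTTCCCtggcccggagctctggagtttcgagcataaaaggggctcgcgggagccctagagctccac

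Cxcl2, a close paralogue of Cxcl1, was also called in double mutants (0.41 ± 0.13, adjusted p = 0.043), with group means from 2.96 to 3.36 that all lay below 3.72, and the call ended without any single array of wild type and without double mutant replicate 2, 3 or 4 (adjusted p from 0.054 to 0.19). Cxcr2 was not called, with means of 5.30, 5.42, 5.29 and 5.35 in wild type and in Vhl, Pbrm1 and double mutants. Of 11 neutrophil markers limma called 0 in double mutants against wild type, with 1 at an unadjusted p under 0.05. The median of that list stood between -0.12 and 0.10 of the wild-type mean across double mutant arrays. Defining neutrophil genes were near background. S100a8, an abundant cytosolic protein, had means of 2.78 in wild type and 2.88 in double mutants, the surface protein Ly6g 3.65 and 3.84, and the granule protein Camp 2.93 and 2.74.

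The 3 ligands of Cxcr3, which draw activated T cells and natural killer cells, did not move together. Cxcl11 read 4.13, 4.11, 4.29 and 4.32 in wild type, 4.28, 4.05, 4.31 and 3.87 in Vhl mutants, 4.07, 4.18, 4.58 and 4.58 in Pbrm1 mutants, and 4.85, 4.96, 5.42 and 5.26 in double mutants. The double mutant arrays stood above all 12 others, which overlapped one another. Cxcl11 was 1.89-fold above wild type (0.92 ± 0.15, adjusted p = 3.3e-04), 2.00-fold above Vhl mutants (1.0 ± 0.15, adjusted p = 2.9e-04) and 1.71-fold above Pbrm1 mutants (0.78 ± 0.15, adjusted p = 0.0017). Its interaction of 0.86 ± 0.22 (adjusted p = 0.036) was lost in 12 of 27 alternatives. Among these were fits without wild-type replicate 1, 3 or 4, double mutant replicate 3 or 4, Pbrm1 mutant replicate 1 or 2, and Vhl mutant replicate 2 or 4, with adjusted p between 0.052 and 0.076. RefSeq lists Cxcl11 as a transcribed pseudogene in the C57BL/6J assembly, while the mutants carry other strains as well, and the part of strain in this result was not tested.

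Cxcl9 read 5.68, 5.02, 5.50 and 4.83 in wild type, 5.72, 5.77, 5.99 and 5.75 in Vhl mutants, 5.31, 5.13, 5.48 and 5.01 in Pbrm1 mutants, and 4.94, 5.39, 5.09 and 5.02 in double mutants. Vhl mutants stood above all other arrays, by 0.55 ± 0.17 over wild type, which was not called (adjusted p = 0.074). Double mutants were 1.63-fold below Vhl mutants (-0.70 ± 0.17, adjusted p = 0.014), a call that ended without the arrays of raised adipose markers at a difference of -0.83 (adjusted p = 0.056). Cxcl10 means were 5.56 ± 0.21, 6.02 ± 0.21, 5.52 ± 0.28 and 5.61 ± 0.21 in wild type, Vhl, Pbrm1 and double mutants (SD, n = 4), and the Vhl mutant difference of 0.47 ± 0.15 was not called (adjusted p = 0.09). Cxcr3 had means of 5.01, 5.26, 5.03 and 5.14 in the same order and was not called. Of 7 T cell markers limma called 0 in double mutants against wild type, with 2 at an unadjusted p under 0.05.

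Ccl28, a mucosal chemokine of epithelial cells that binds Ccr10 and Ccr3, split the double mutant group. It read 6.64, 6.56, 6.18 and 6.44 in wild type, 6.61, 6.48, 6.65 and 6.43 in Vhl mutants, 6.15, 6.41, 6.53 and 6.75 in Pbrm1 mutants, and 6.81, 6.45, 9.40 and 9.28 in double mutants. Double mutant replicates 3 and 4 were far above every other array, and replicates 1 and 2 lay in or close to the range of the other groups. The fitted rise over wild type was 2.99-fold (1.58 ± 0.48, adjusted p = 0.035). The call ended without replicate 3 or replicate 4 of that group or any single wild-type replicate (adjusted p from 0.055 to 0.17), and the estimate ranged from 1.10 to 2.06 over the alternatives. With replicate 3 given the number of replicate 4, the estimate was 1.53 ± 0.45 (adjusted p = 0.029). Under that numbering both high arrays share 1 number, and replicates 1 and 2 share the other. If a number marks an animal, the rise then lay in 1 animal, and this p-value does not measure the spread between animals. The rise over Pbrm1 mutants (1.57 ± 0.48, adjusted p = 0.041) ended without any single Pbrm1 mutant array, Vhl mutant replicate 2, or double mutant replicate 3 or 4 (adjusted p between 0.052 and 0.19). The group mean of 7.98 ± 1.57 describes none of its 4 arrays. Ccr10 had means from 3.69 to 3.95 and was not called.

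Ccl25, a thymic and gut chemokine that binds Ccr9 and is taken up by Ackr4, read 6.48, 6.55, 6.43 and 7.01 in wild type and 6.43, 6.42, 6.20 and 6.16 in Vhl mutants. It read 6.15, 5.99, 6.10 and 6.09 in Pbrm1 mutants and 6.11, 5.96, 6.04 and 6.05 in double mutants. The Pbrm1 and double mutant arrays lay below every wild-type array and below every Vhl mutant array. Ccl25 was 1.45-fold lower than wild type in Pbrm1 mutants (-0.54 ± 0.11, adjusted p = 0.0081) and 1.49-fold lower in double mutants (-0.58 ± 0.11, adjusted p = 0.0016). The Pbrm1 mutant call ended without the arrays of raised adipose markers (-0.54, adjusted p = 0.063) and when arrays were averaged per description number. Ccr9 and Ackr4 stayed below 3.72, with means from 3.14 to 3.54 and from 2.91 to 3.06.

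Cxcl14, a chemokine made by epithelia in the absence of inflammation, was the other member to fall. It read 7.90, 7.82, 7.92 and 7.96 in wild type, 8.13, 7.81, 8.24 and 8.24 in Vhl mutants, 8.11, 7.94, 8.02 and 7.93 in Pbrm1 mutants, and 7.74, 7.66, 7.41 and 7.57 in double mutants. The double mutant arrays lay below all 12 others. Double mutants were 1.43-fold below Vhl mutants (-0.51 ± 0.09, adjusted p = 0.0018) and 1.32-fold below Pbrm1 mutants (-0.41 ± 0.09, adjusted p = 0.0068). They were 1.24-fold below wild type (-0.31 ± 0.09, adjusted p = 0.038), and the call was lost without double mutant replicate 3 or 4 and without wild-type replicate 1, 3 or 4 (adjusted p between 0.072 and 0.12). The interaction was -0.61 ± 0.13 (adjusted p = 0.016). Its window, chr13:56296552-56296751 on the minus strand of GRCm38.p6, is shown because it held the only interferon response core among the 42 members with a promoter entry. Capitals mark the STAT motif TTCNNNGAA and that core, GAAANNGAAA.
Cxcl14: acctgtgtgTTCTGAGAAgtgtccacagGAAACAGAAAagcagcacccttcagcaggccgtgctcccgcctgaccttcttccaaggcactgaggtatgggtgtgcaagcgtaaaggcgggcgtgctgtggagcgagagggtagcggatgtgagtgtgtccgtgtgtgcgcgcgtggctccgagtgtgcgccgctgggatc

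Cxcl12, which holds haematopoietic cells in their niches through Cxcr4 and is scavenged by Ackr3, was not called in any comparison. It read 8.99, 8.96, 9.19 and 8.97 in wild type, 9.14, 8.90, 9.66 and 9.37 in Vhl mutants, 8.68, 8.68, 8.66 and 8.56 in Pbrm1 mutants, and 8.88, 8.66, 9.22 and 8.96 in double mutants. Every Pbrm1 mutant array lay below every wild-type array, by -0.38 ± 0.13, which was not called (adjusted p = 0.11). Cxcr4 means ran from 6.15 to 6.42 and Ackr3 means from 6.44 to 6.65, with neither called in any comparison. Ackr2, which degrades inflammatory CC ligands, had means from 5.16 to 5.34, and Ackr1, the erythrocyte and venule receptor, from 3.35 to 3.43.

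**Figure D3:**
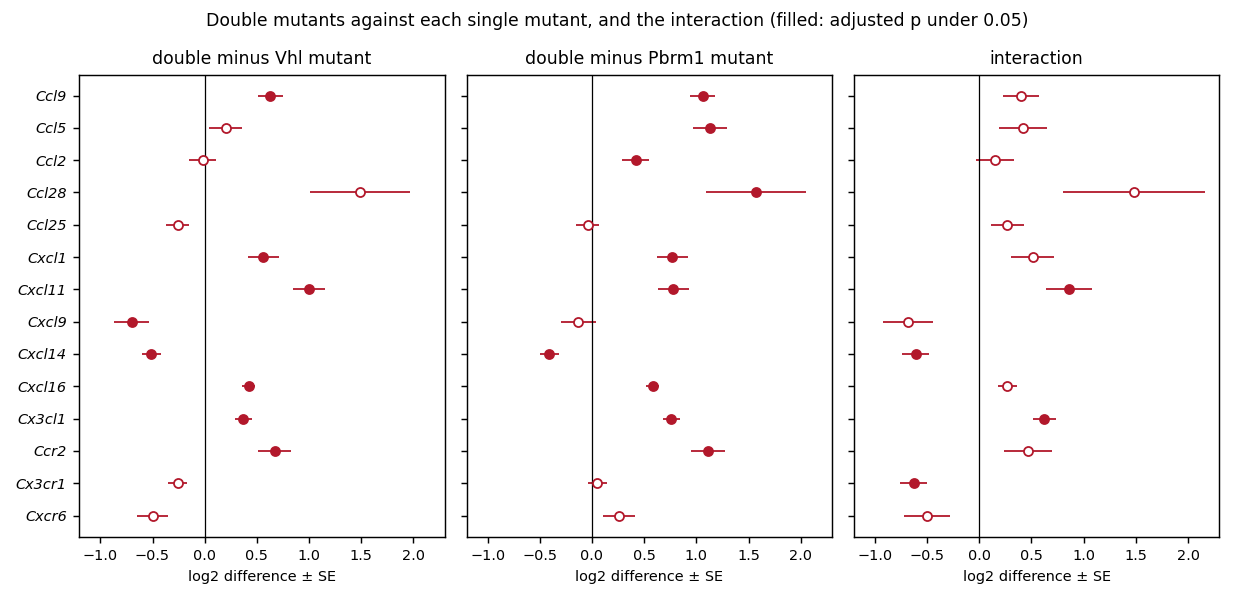
Log2 difference (± SE) of double mutants from Vhl mutants and from Pbrm1 mutants, and the interaction, for the 14 called members above background, with filled points for called genes. Called interactions are positive for Cxcl11 (0.86) and Cx3cl1 (0.62) and negative for Cx3cr1 (-0.63) and Cxcl14 (-0.61).

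Averaging the arrays per description number, which leaves fewer samples, ended all 4 interaction calls. It also ended the calls of Ccr2, Cxcl16 and Cxcr6 in Vhl mutants, those of Ccl25 and Cx3cr1 in Pbrm1 mutants, those of Cxcl2 and Cxcl14 in double mutants, those of Cx3cl1 and Cxcl1 in double against Vhl mutants, and that of Ccl2 in double against Pbrm1 mutants. Ccl5, Ccl9, Ccl25, Ccr2, Cx3cl1, Cx3cr1, Cxcl1, Cxcl11 and Cxcl16 stayed called in double mutants against wild type under the 28 refits of the model, of which Ccl25, Cx3cl1 and Cx3cr1 did not reach the 1.5-fold minimum.

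Of the 56 members 41 were called in none of the 6 comparisons, and 28 of these were above background in at least 1 group. In the 24 of them above background in all groups, changes from wild type ran from -0.17 (Cxcl17) to 0.47 (Cxcl10) for Vhl mutants, from -0.38 (Cxcl12) to 0.24 (Ccr7) for Pbrm1 mutants and from -0.19 (Ccl20) to 0.34 (Ccr7) for double mutants. Ccl17, which binds Ccr4 on type 2 T cells, had means of 3.33, 3.92, 3.41 and 3.79 in wild type and in Vhl, Pbrm1 and double mutants. It missed the threshold narrowly in Vhl mutants (adjusted p = 0.05 after rounding) and in double mutants had an adjusted p of 0.091. In 14 members no group mean passed 3.72, and for these a change cannot be told from background. Among them were Ccl1, Ccl12, Ccl26, Cxcl3, Cxcl5, Ccr1, Ccr3, Ccr4 and Ccr9, and also Cxcl2, which was called in double mutants. Ccl27a was the only member with 2 probe sets. The brighter gave means from 5.91 to 6.00 and the other from 3.93 to 4.28. A further 33 probe sets that the annotation assigns to several genes, of the Ccl19, Ccl21 and Ccl27 families, were left out.

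Many members sit in gene clusters, and calls did not extend to whole clusters. On chromosome 11, Ccl5 and Ccl9 rose in double mutants within a cluster of 5 measured members, in which Ccl3 and Ccl4 had differences of 0.20 and 0.05 and were not called, as was Ccl6, which lay near background. The cluster of Ccl2, Ccl7, Ccl11, Ccl12, Ccl8 and Ccl1 on the same chromosome had no called member among 6, with differences from -0.14 to 0.33. On chromosome 5, Cxcl1 rose within a cluster of 5, in which Cxcl2, though called, and Cxcl3, Cxcl5 and Cxcl15 lay at background. On the same chromosome Cxcl11 rose beside Cxcl9 (-0.15) and Cxcl10 (0.07). On chromosome 9, Ccr2 rose within a receptor cluster of 7, in which Xcr1 differed by 0.07 and Ccr1, Ccr1l1, Ccr3 and Ccr9 lay at background. Cxcr6, of the same cluster, was called in Vhl mutants but not in double mutants, where its mean, like that of wild type, lay below 3.72. On chromosome 8, Cx3cl1 rose beside Ccl22 (-0.17) and Ccl17, which were not called.

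Promoter windows of 200 bases before a RefSeq start were found for 42 of the members and for 27025 genes in all. A match to the NF-kappaB consensus on either strand was present in 11 of the 42 (26.2%) and in 6.92% of all genes. The TATAAA box on the gene's strand was present in 12 (28.6%) against 7.43%. The AP-1 motif TGANTCA was present in 5 (11.9%) against 6.36%, the STAT motif TTCNNNGAA in 4 (9.52%) against 6.38%, and the core GAAANNGAAA in 1 (2.38%) against 2.65%. The PU.1 core GAGGAA was present in 8 (19%) against 21.3%, and the hypoxia response core ACGTG in 2 (4.76%), in Cxcl1 and Cxcl3, against 15.7%. All but TATAAA were searched on both strands, and neighbouring paralogues share promoter sequence, so these are descriptions and not independent counts. Of the 11 genes with an NF-kappaB match, Ccl9, Cxcl1 and Cxcl2 (below background) were called in double mutants against wild type. Cxcl10, Ccl20, Cxcl3, Ccl1, Ccr1, Ccr3, Ccr6 and Ackr2 were not. Ccl5, Cxcl11 and Cxcl16, called in the same comparison, had no promoter entry and were not searched. In that comparison 21.4% of all members and 12.2% of all genes were called, and a link between match and call was not tested. The windows of Ccr2 and Ccl28 held none of the 7 motifs.

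**Figure D4:**
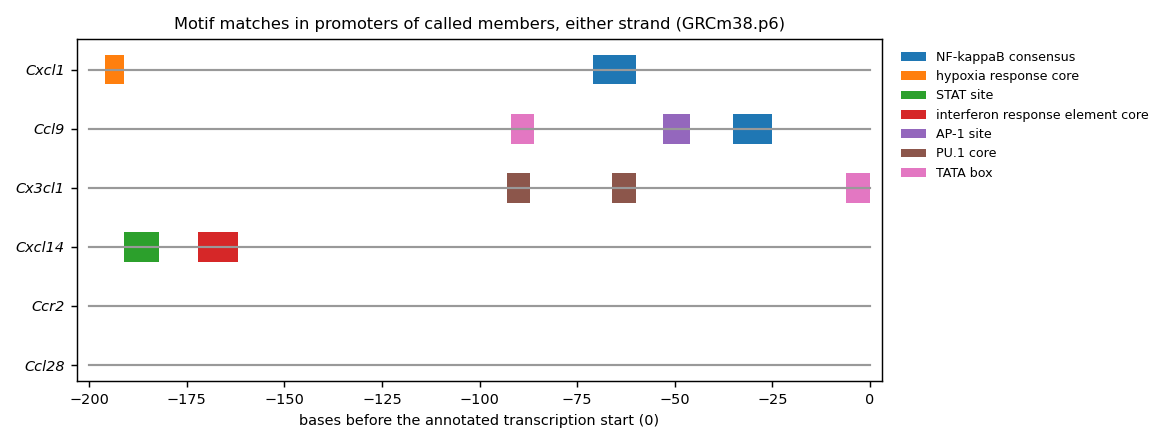
Positions of motif matches in the 200 bases before the RefSeq start of Cxcl1, Ccl9, Cx3cl1, Cxcl14, Ccr2 and Ccl28, with distance from the start in bases on the horizontal axis. Cxcl1 has NF-kappaB matches between -71 and -61, Ccl9 has 1 between -35 and -26, and Ccr2 and Ccl28 show none.

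Genes of the NF-kappaB pathway, among them inhibitors, and cytokines that induce chemokines were also called. The gene lists here and below were chosen with earlier results of these data known, so their shares are descriptions only. Of 26 measured NF-kappaB genes and inducing cytokines, 14 rose and 1 fell in double mutants (57.7% against 12.2% of all genes, median 0.36). In Vhl mutants 4 rose (15.4% against 3.84%, median 0.15), and in Pbrm1 mutants 2 rose and 2 fell (15.4% against 4.04%). In double mutants the NF-kappaB regulator Bcl3 rose by 1.16 ± 0.13 (adjusted p = 3.9e-06) and Tnfaip3, an inhibitor of NF-kappaB, by 1.0 ± 0.12 (adjusted p = 8.3e-06). The inhibitor Nfkbie rose by 0.97 ± 0.12 (adjusted p = 1.0e-05) and the cytokine Il1b by 1.15 ± 0.21 (adjusted p = 8.6e-04). Il34, a ligand of the macrophage receptor Csf1r, was 1.28 ± 0.25 higher in double than in Vhl mutants (adjusted p = 0.0026). In Vhl mutants Tnfaip3 rose by 0.66 (adjusted p = 0.0029) and Nfkbie by 0.49 (adjusted p = 0.024). The adaptor Myd88 had an interaction of 0.95 (adjusted p = 0.004), having fallen in Pbrm1 mutants by 0.46 (adjusted p = 0.032).

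Of 21 genes that carry receptor signals in leukocytes 9 rose in double mutants and 0 fell (42.9% against 12.2% of all genes, median 0.31), and 3 rose in Vhl mutants (14.3% against 3.84%, median 0.17). Those in double mutants included the phospholipase Plcb2 (0.80 ± 0.10, adjusted p = 1.1e-05), the kinase Fgr (0.74 ± 0.14, adjusted p = 0.0012) and the GTPase Rac2 (0.64 ± 0.12, adjusted p = 7.6e-04). In Pbrm1 mutants limma called 0 of these 21, with 3 at an unadjusted p under 0.05. Of 17 genes of leukocyte adhesion and matrix docking, 11 rose in double mutants (64.7% against 12.2% of all genes, median 0.51). In Vhl mutants 8 of these rose (47.1% against 3.84%, median 0.43). The endothelial and tubular adhesion molecule Vcam1 rose by 1.46 ± 0.13 in double mutants (adjusted p = 1.9e-07), Jam2 by 1.44 ± 0.09 (adjusted p = 8.1e-10) and the integrin Itgam by 1.39 ± 0.16 (adjusted p = 3.5e-06). Their interactions were 0.92, 0.89 and 0.89 (adjusted p = 0.01, 4.4e-04 and 0.034). Outside the symbol rule, the chemokine-like cytokine Mif rose in Vhl mutants (0.66 ± 0.09, adjusted p = 2.3e-04) and double mutants (0.87 ± 0.09, adjusted p = 2.1e-06), and the platelet chemokine Ppbp fell in double mutants (-0.81 ± 0.18, adjusted p = 0.0034).

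Macrophage markers were also called in the genotypes with floxed Vhl. Of 15 macrophage markers 11 rose in Vhl mutants (73.3% against 3.84% of all genes) and 8 in double mutants (53.3% against 12.2%). In Pbrm1 mutants limma called 0 of them, with 2 at an unadjusted p under 0.05. The median of the list stood 0.54 to 0.79 above the wild-type mean in the Vhl mutant arrays, 0.46 to 0.75 above it in the double mutant arrays and from -0.19 to -0.08 of it in the Pbrm1 mutant arrays. In double against Vhl mutants 1 macrophage marker was higher and 2 were lower (20% against 6.35% of all genes), 8 had an unadjusted p under 0.05 and the list's median was 0.20. In double mutants Cd68 rose by 1.36 ± 0.14 (adjusted p = 1.3e-06) and Mrc1 by 1.05 ± 0.14, while Adgre1 and Csf1r, which define the lineage, differed by 0.41 (adjusted p = 0.26) and 0.19 (adjusted p = 0.39). Of 9 endothelial markers 5 rose in Vhl and 5 in double mutants (55.6% in each, against 3.84% and 12.2% of all genes). In Pbrm1 mutants 1 of them fell (11.1% against 4.04%). Array medians stood 0.26 to 0.52 above wild type in Vhl mutants and 0.27 to 0.40 above it in double mutants. Of 7 markers of the tubule segments where Cdh16 is active, 3 fell in Vhl mutants (42.9% against 3.84%) and 1 fell in Pbrm1 mutants (14.3% against 4.04%). In double mutants 1 of these markers rose and 4 fell (71.4% against 12.2%). Of 6 dendritic cell markers 1 rose in each single mutant group (16.7% against 3.84% in Vhl and 4.04% in Pbrm1 mutants). In double mutants 3 of them rose (50% against 12.2%). The part of these cell types in the chemokine results was not tested.

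**Figure D5:**
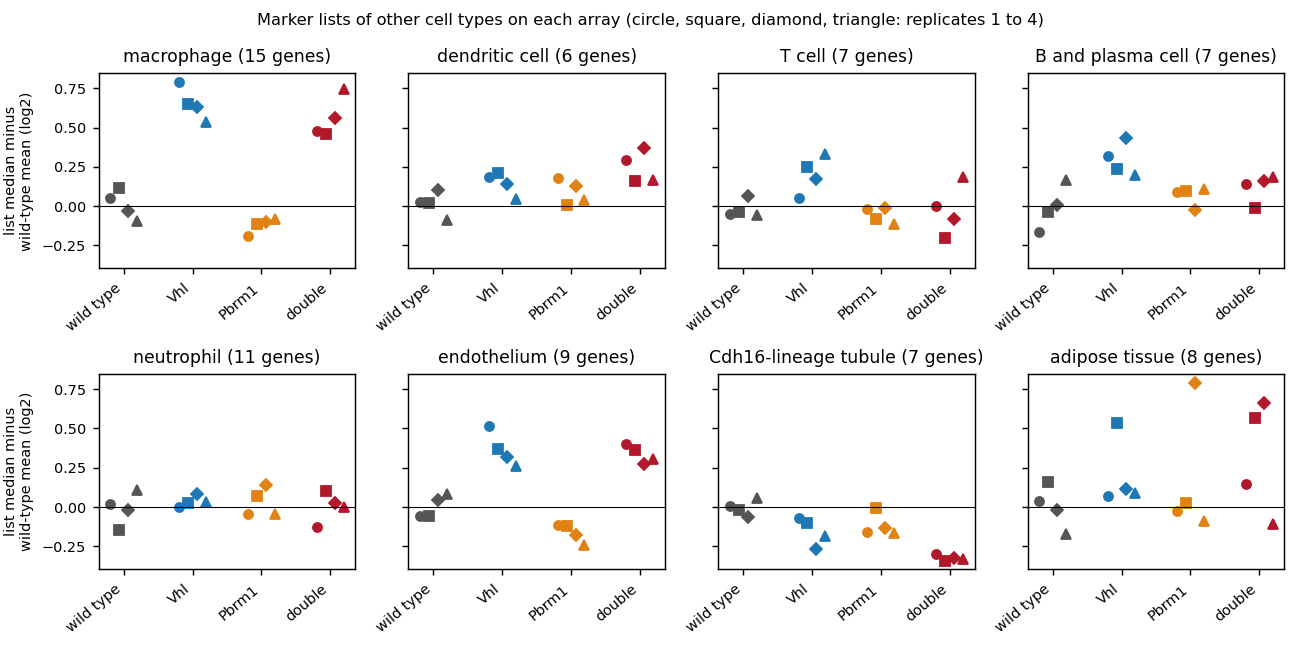
Median log2 difference from the wild-type mean over each of 8 marker lists, in each of the 16 arrays, by group. The macrophage list runs from 0.54 to 0.79 for Vhl mutants and from 0.46 to 0.75 for double mutants, and the neutrophil list between -0.14 and 0.14 in all arrays.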

How the data were processed

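Per the labels' protocols, Trizol-extracted RNA of kidney cortex was labelled with biotin and hybridised to 16 Affymetrix arrays. The deposited values are log2 levels from RMA, and the submitters' processing notes name Affymetrix Expression Console 1.4. There are 41345 probe sets, and 0 columns of values were left unused. Of these, 23521 have 1 gene symbol in the platform annotation, 1814 have several and 16010 are not listed, and the last 2 kinds were left out. The probe set of highest mean was kept for each gene, which gave 22180 genes, 1082 of them with more than 1 probe set. Symbols were checked against RefSeq (GRCm38.p6), where 23328 probe sets matched by Entrez identifier, and 0 members needed a new symbol. RefSeq lists 67 symbols that match the rule, of which 11 are not analysed here. Array medians lay between 5.178 and 5.275.

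One model with 4 groups and all 16 arrays was fitted with limma 3.58.1 in R 4.3.3. The number in the array descriptions entered as a random block (duplicateCorrelation, estimated correlation 0.0838), followed by eBayes with a trend (prior degrees of freedom 7.73, residual 12). Fold changes come from this fit and differ slightly from differences of group means. P-values were adjusted by Benjamini-Hochberg over all genes within each of 6 comparisons. The median standard error over all genes was 0.115 against wild type for single mutants and 0.163 for the interaction. No expression filter was applied, and the level of 3.72 was chosen after values were seen. Named genes were all members called in any comparison, their known partners, the members of highest mean in each role, and up to 4 called genes of each related list per comparison. Members and gene lists were chosen with earlier results of these data known, and lists are described by counts and medians only. Itgax and Pecam1 each stand in a marker list and in a related list. Alternatives varied the block, scaling, filter, probe set rule, variance prior, fold minimum and the arrays included. Promoters are RefSeq sequences of GRCm38.p6, and motif matches were found by pattern. Tables and figures were made in Python 3.11.15 (numpy 2.4.6, pandas 2.3.3, matplotlib 3.10.9).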

Additional observations from a re-analysis of the deposited data

Results flagged for a closer look

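Of 60 sets of 4 arrays of the named members tested by Dixon's ratio, 4 held an array that stood apart, where chance gives about 1 in 20. Cx3cl1 read 8.41 in double mutant replicate 1 against 8.32 to 8.33 in the others, and Cx3cr1 read 5.96 in wild-type replicate 2 against 6.15 to 6.18. Cxcl16 read 8.59 in Pbrm1 mutant replicate 1 against 8.50 to 8.51, and Cxcl2, below background, read 2.85 in wild-type replicate 4 against 2.98 to 2.99. The double mutant values of Ccl28 did not meet this criterion, since 2 of its 4 arrays are high together.

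By limma's test of the interaction, the double mutant change from wild type differed from the sum of the single mutant changes for 4 members. Wild type enters this contrast, so strain and Cre cannot be told apart from the deletions in it. The difference was 0.86 for Cxcl11, 0.62 for Cx3cl1, -0.63 for Cx3cr1 and -0.61 for Cxcl14.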

How the results depend on the processing

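The model was refitted under up to 28 other settings per call, 27 for Cxcr6, Cxcl2 and the interaction. Of 42 calls of a member in a comparison, 22 were kept under each refit and 0 changed direction under any, the 1.5-fold minimum not counted. Leaving out 1 array at a time gave 4 to 8 called members in Vhl mutants against wild type, 1 to 2 in Pbrm1 mutants, 9 to 12 in double mutants, 6 to 10 in double against Vhl mutants, 8 to 10 in double against Pbrm1 mutants and 3 to 4 for the interaction. With the arrays averaged per description number, limma called 0 members in Pbrm1 mutants (4 at an unadjusted p under 0.05) and 0 for the interaction (13 at an unadjusted p under 0.05), a setting with fewer samples. Without the 4 arrays of raised adipose markers, a setting chosen after seeing the data, the counts were 0 in Pbrm1 mutants (5 at an unadjusted p under 0.05), 4 in double against Vhl mutants and 2 for the interaction. Requiring also a 1.5-fold change left 0 members in Pbrm1 mutants (2 without that minimum), 7 in double mutants against wild type and 4 in double against Vhl mutants. With double mutant replicate 3 given the number of replicate 4, also chosen after seeing the data, 11 members were called in double mutants against wild type. The replicate numbers did not pair the arrays: over 24 pairs of the same number in different groups, the correlation of deviations ran from -0.07 to 0.06. With the replicate number as a block, the counts against wild type were 8 for Vhl, 3 for Pbrm1 and 12 for double mutants. The 14 members at background and the number of arrays limit what could be called.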
